A study of Mus musculus with 6 samples.

Results

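The genes described here are 10 immediate early genes, *Fos*, *Fosb*, *Jun*, *Junb*, *Egr1*, *Atf3*, *Ier2*, *Nr4a1*, *Dusp1* and *Btg2*, of 54232 genes counted in each heart ventricle library. They were chosen by name, as listed members of the class, with earlier results of these data known. RNA was sequenced from 3 C57BL/6J WT mice on WD that received Tributyrin (WD + Tributyrin) and from 3 C57BL/6J WT mice on WD that received vehicle, which the sample labels call PBS. Tributyrin is a triglyceride of the short chain fatty acid butyrate, and it was given by needle feeding at 5 g/kg for 3 weeks after 15 weeks of WD. Every mouse was on WD, so the comparison is of Tributyrin against vehicle within WD, and no library from lean mice was used. Each library is the ventricle of a separate mouse. The libraries held between 20369746 and 32734485 counts on genes. In bulk tissue, fewer cells of a type and less RNA per cell cannot be told apart.

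Immediate early genes are transcribed within minutes of a stimulus, without the need for new protein, when kinase cascades activate factors that already sit at their promoters, such as serum response factor and CREB. Many encode transcription factors that pass the signal on, and others encode proteins that shut the signal down, so their transcripts appear and disappear quickly. In the heart they are known to be induced by stretch, adrenergic stimulation and ischaemia, and also by the handling of the tissue at dissection.

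The promoters of these genes were searched for the elements that such cascades act through, and the windows with TGACGTCA, with TATAAA or with 2 or more copies of TGACG are printed. RefSeq windows (GRCm38.p6) of 300 bases, from 250 before the transcription start to 50 after it, were found for 8 of the 10 genes, all but *Egr1* and *Ier2*. The core of the cAMP response element (CRE), TGACG, was searched on both strands and was present in 7 of the 8 windows, all but that of *Jun*. Of all 32851 windows, 20.8% hold it. The *Nr4a1* window held 4 such matches, where 0.627% of all windows hold 3 or more. The windows of *Fos* and *Dusp1* held 2 each. The whole element TGACGTCA, which contains the core on both strands and was then counted as 1 match, stood in the windows of *Btg2* and *Dusp1* and in 1.79% of all windows. The letters TATAAA began at −33 from the annotated start in *Fos* and at the annotated start itself in *Junb*, and in 13.6% of all windows. The AP-1 element TGANTCA was in 0 of the 8 windows and in 7.81% of all, and the CArG box, the element that serum response factor binds, in 0 of the 8 and in 1.63% of all. A match describes the letters of the window and not a bound site. An absence holds only for these exact letters within these windows. Sequence more than 250 bases before the start, and the promoters of *Egr1* and *Ier2*, were not searched. In the windows that follow, each read 5′ to 3′ on the strand of the gene, capitals mark TGACG, its reverse complement CGTCA, TGACGTCA and TATAAA. They are *Nr4a1* at chr15:101266596-101266895 (+), *Fos* at chr12:85473640-85473939 (+), *Dusp1* at chr17:26508423-26508722 (−), *Btg2* at chr1:134079106-134079405 (−) and *Junb* at chr8:84978699-84978998 (−).
Nr4a1: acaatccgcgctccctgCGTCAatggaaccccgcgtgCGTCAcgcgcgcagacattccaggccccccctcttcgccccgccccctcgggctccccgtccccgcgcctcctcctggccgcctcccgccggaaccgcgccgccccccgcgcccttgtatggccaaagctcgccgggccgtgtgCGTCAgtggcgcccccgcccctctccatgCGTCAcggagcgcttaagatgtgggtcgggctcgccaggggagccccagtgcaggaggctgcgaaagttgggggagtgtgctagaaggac
Fos: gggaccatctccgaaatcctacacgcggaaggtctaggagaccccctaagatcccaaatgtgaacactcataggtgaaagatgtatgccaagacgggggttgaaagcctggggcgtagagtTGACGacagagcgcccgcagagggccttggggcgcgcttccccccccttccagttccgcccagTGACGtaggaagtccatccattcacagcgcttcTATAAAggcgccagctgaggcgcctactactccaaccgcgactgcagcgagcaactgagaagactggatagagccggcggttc
Dusp1: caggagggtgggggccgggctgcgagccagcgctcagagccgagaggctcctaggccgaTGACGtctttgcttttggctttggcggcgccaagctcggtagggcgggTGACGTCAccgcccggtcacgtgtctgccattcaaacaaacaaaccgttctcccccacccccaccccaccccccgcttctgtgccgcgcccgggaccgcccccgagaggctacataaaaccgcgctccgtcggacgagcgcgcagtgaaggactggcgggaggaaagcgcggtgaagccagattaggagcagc
Btg2: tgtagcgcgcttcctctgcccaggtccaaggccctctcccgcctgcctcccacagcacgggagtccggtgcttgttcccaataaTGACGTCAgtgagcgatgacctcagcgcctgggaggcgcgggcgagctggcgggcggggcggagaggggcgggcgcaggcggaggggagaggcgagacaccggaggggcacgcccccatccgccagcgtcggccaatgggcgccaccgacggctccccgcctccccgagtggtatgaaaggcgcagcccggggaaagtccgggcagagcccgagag
Junb: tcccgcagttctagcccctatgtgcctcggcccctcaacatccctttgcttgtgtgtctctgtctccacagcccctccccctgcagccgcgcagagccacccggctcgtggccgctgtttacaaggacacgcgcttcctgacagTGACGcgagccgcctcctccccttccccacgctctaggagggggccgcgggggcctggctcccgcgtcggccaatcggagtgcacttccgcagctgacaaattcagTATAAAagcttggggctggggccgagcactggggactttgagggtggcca

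In none of the 9 immediate early genes tested was a difference between WD + Tributyrin and WD + vehicle detected once all genes were taken into account. A gene that was not called is not shown to be unchanged. Levels are given as CPM, counts divided by the library total in units of 1e+06 counts, after scaling by TMM (trimmed mean of M values, which corrects totals for a few dominant genes). After edgeR's filter on low counts, 14133 genes were tested and 9 of the 10 immediate early genes were among them, since *Fosb* did not pass it. In edgeR's quasi-likelihood fit, with p-values adjusted over all genes tested by the method of Benjamini and Hochberg, 0 of the 9 passed an FDR of 10% or 5%, against a background of 0% of all genes, and the adjusted p was 0.999 for each of the 9. At an unadjusted p under 0.05 there was 1 of the 9, *Jun*, lower with Tributyrin, against 4.25% of all genes tested in either direction, 1.97% higher and 2.28% lower. DESeq2 called 0 of the 9 at 10%, against 0.0848% of the genes it gave an adjusted p. By limma-voom it was 0 of the 9 and 0 of all 14133 genes tested. The mean was higher with Tributyrin in 6 and lower in 3. The median log2 fold change of the 9 was 0.06 and that of all genes tested −0.00. The median size of the log2 fold change, whatever its sign, was 0.22 for the 9 and 0.0883 for all genes. These genes also spread more between mice of the same group, with a median SD of log2 CPM of 0.210 against 0.150 for all genes. The part of that spread in the size of the fold changes was not tested.

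**Figure D1:**
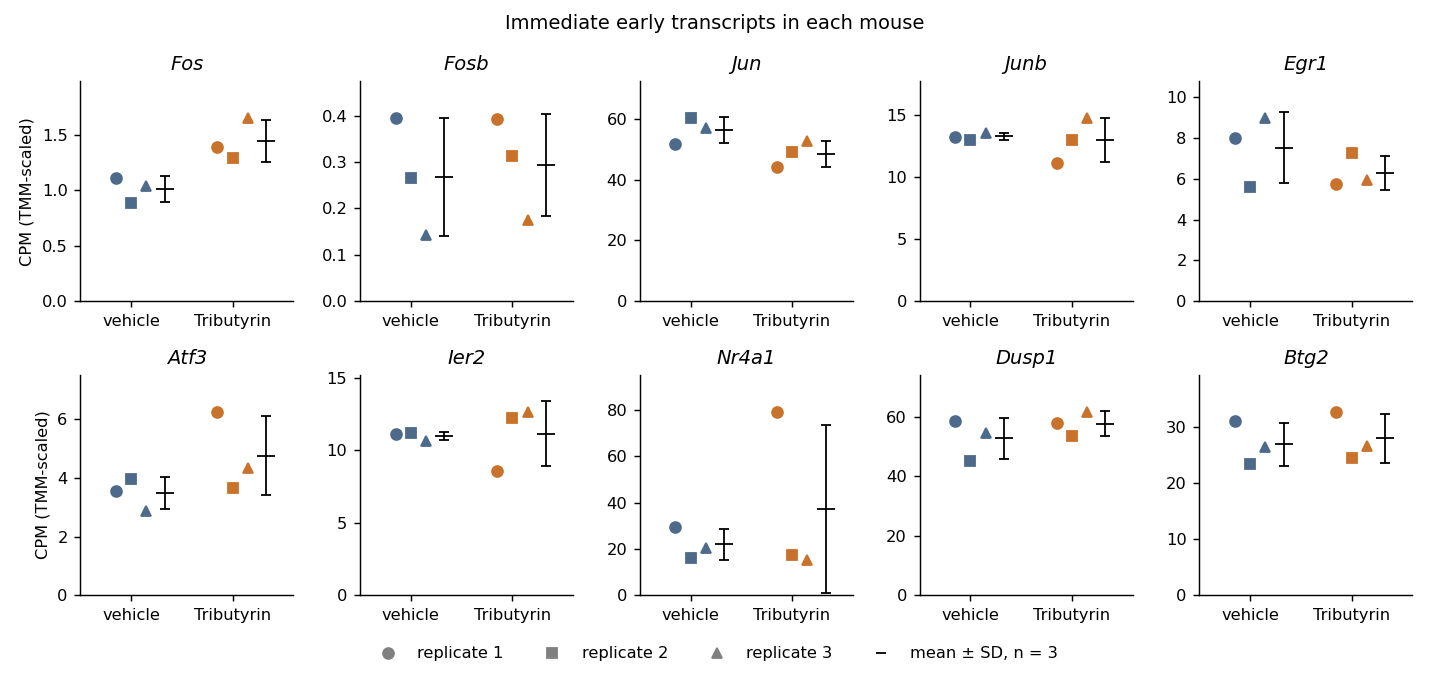
Each panel plots 1 of the 10 immediate early genes in TMM-scaled CPM on an axis that starts at 0, with a point per mouse for vehicle (blue) and Tributyrin (orange) and the mean ± SD of 3 mice as a bar. The *Fos* points of the groups do not overlap, and 1 Tributyrin mouse at 79.3 CPM stands above all others for *Nr4a1*.

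*Fos*, *Fosb*, *Jun* and *Junb* encode subunits of AP-1, a dimeric transcription factor of basic leucine zipper proteins. *Fos* (ENSMUSG00000021250, GRCm38 chr12:85473890-85477273, 4 exons) was at 1.11, 0.884 and 1.04 CPM with vehicle and at 1.39, 1.29 and 1.65 CPM with Tributyrin. Every Tributyrin mouse was above every vehicle mouse, and *Fos* was the only 1 of the 9 whose groups did not overlap, where 4.34% of all genes tested were apart in that direction. Mean *Fos* was 1.01 ± 0.115 CPM in vehicle mice against 1.44 ± 0.188 CPM in Tributyrin mice (SD, n = 3 each). The log2 fold change was 0.52 (SE 0.254, 95% interval −0.05 to 1.08), and the two-sided exact permutation test gave p = 0.1, the smallest that 3 mice against 3 allow. *Fos* is a rare transcript here. It had 28, 30 and 22 counts with vehicle and 39, 37 and 38 with Tributyrin, and at its mean of 32.3 counts the counting error alone is 17.6%. *Fosb* (ENSMUSG00000003545, chr7:19302696-19310051, 4 exons) was rarer still, with 10, 9 and 3 counts with vehicle and 11, 9 and 4 with Tributyrin, so a difference was not detectable at this depth.

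*Jun* (ENSMUSG00000052684, chr4:95049034-95052222) encodes the partner of the Fos proteins. It was at 51.7, 60.3 and 57.1 CPM with vehicle and at 44.1, 49.0 and 52.6 CPM with Tributyrin. Mean *Jun* was 56.4 ± 4.36 CPM in vehicle mice against 48.5 ± 4.29 CPM in Tributyrin mice (SD, n = 3 each). The groups overlapped, since the highest Tributyrin mouse was above the lowest vehicle mouse. The log2 fold change was −0.22 (SE 0.0893, 95% interval −0.41 to −0.02, unadjusted edgeR p = 0.0351), and the exact permutation test gave p = 0.2. That unadjusted p was 0.05 or more when either vehicle replicate 2, vehicle replicate 3, Tributyrin replicate 1 or Tributyrin replicate 2 was left out. *Junb* (ENSMUSG00000052837, chr8:84974484-84978718) encodes a Jun family member that can restrain Jun. It was at 13.3, 13.0 and 13.6 CPM with vehicle, within 1 CPM of each other, and at 11.2, 13.0 and 14.8 CPM with Tributyrin. Its log2 fold change was −0.03 (SE 0.116, 95% interval −0.29 to 0.22). The longest coding transcript of each of these genes has 1 exon, and the spans of both genes overlap genes on the opposite strand. The strand setting of the counting is not given in the sources used here. *Junos*, whose span overlaps that of *Jun*, had 9 to 17 counts a library. *Prdx2*, whose span overlaps that of *Junb*, had 5356 to 8406. Whether exons overlap was not examined, so it is not known whether reads of these neighbours enter the *Jun* and *Junb* levels.

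*Egr1* and *Nr4a1* encode DNA-binding factors of other families, a zinc finger protein and an orphan nuclear receptor. *Egr1* (ENSMUSG00000038418, chr18:34859823-34864984, 3 exons) was at 7.98, 5.60 and 8.99 CPM with vehicle and at 5.73, 7.25 and 5.92 CPM with Tributyrin. The groups overlapped, and the log2 fold change was −0.24 (SE 0.182, 95% interval −0.64 to 0.16). It was −0.0975 without vehicle replicate 3 and −0.43 without vehicle replicate 2. *Nr4a1* (ENSMUSG00000023034, chr15:101254269-101274795, 8 exons) was at 29.2, 16.02 and 20.5 CPM with vehicle and at 79.3, 17.3 and 15.0 CPM with Tributyrin. Tributyrin replicate 1 was 2.71 times the next highest mouse, which had received vehicle, and both other Tributyrin mice lay below the median of the vehicle mice. Mean *Nr4a1* was 21.9 ± 6.72 CPM in vehicle mice against 37.2 ± 36.5 CPM in Tributyrin mice (SD, n = 3 each), and the medians, 20.5 and 17.3 CPM, had the opposite order. The log2 fold change of 0.77 (SE 0.532, 95% interval −0.41 to 1.95) became −0.43 without Tributyrin replicate 1. With all mice kept it was 0.41 by limma-voom and 0.42 with the replicate number as a block. The gene had 2228 counts in that mouse and 740 in the next.

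*Atf3* (ENSMUSG00000026628, chr1:191170296-191218039, 4 exons) encodes a stress-induced member of the ATF and CREB family that often represses transcription. It was at 3.56, 3.98 and 2.89 CPM with vehicle and at 6.26, 3.66 and 4.35 CPM with Tributyrin. The groups overlapped, and again Tributyrin replicate 1 was the highest. Mean *Atf3* was 3.47 ± 0.550 CPM in vehicle mice against 4.76 ± 1.35 CPM in Tributyrin mice (SD, n = 3 each), a log2 fold change of 0.44 (SE 0.218, 95% interval −0.04 to 0.93) that was 0.20 without Tributyrin replicate 1. *Ier2* (ENSMUSG00000053560, chr8:84661331-84662852, 1 exon) encodes a nuclear protein of the growth factor response. It was at 11.1, 11.2 and 10.6 CPM with vehicle and at 8.58, 12.2 and 12.7 CPM with Tributyrin. The vehicle mice lay inside the range of the Tributyrin mice, and the log2 fold change was 0.02 (SE 0.145, 95% interval −0.30 to 0.34).

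*Dusp1* and *Btg2* act against growth signals. *Dusp1* (ENSMUSG00000024190, chr17:26505590-26562128, 4 exons) encodes a phosphatase that switches off MAP kinases. *Btg2* (ENSMUSG00000020423, chr1:134075170-134079120, 2 exons) encodes an antiproliferative protein that promotes mRNA decay. *Ergic1*, on the opposite strand with a span that overlaps that of *Dusp1*, had 1031 to 1685 counts a library. Here too overlap of exons was not examined, so it is not known whether its reads enter the *Dusp1* level. *Dusp1* was at 58.5, 45.2 and 54.4 CPM with vehicle and at 57.8, 53.4 and 61.7 CPM with Tributyrin, with a log2 fold change of 0.13 (SE 0.101, 95% interval −0.09 to 0.36) that was 0.0291 without vehicle replicate 2. *Btg2* was at 30.9, 23.3 and 26.3 CPM with vehicle and at 32.7, 24.4 and 26.6 CPM with Tributyrin, with a log2 fold change of 0.06 (SE 0.130, 95% interval −0.23 to 0.35). In both genes the groups overlapped, and vehicle replicate 2 was the lowest of the 6 mice. None of the 9 genes was lower with Tributyrin without overlap, where 4.61% of all genes tested were.

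**Figure D2:**
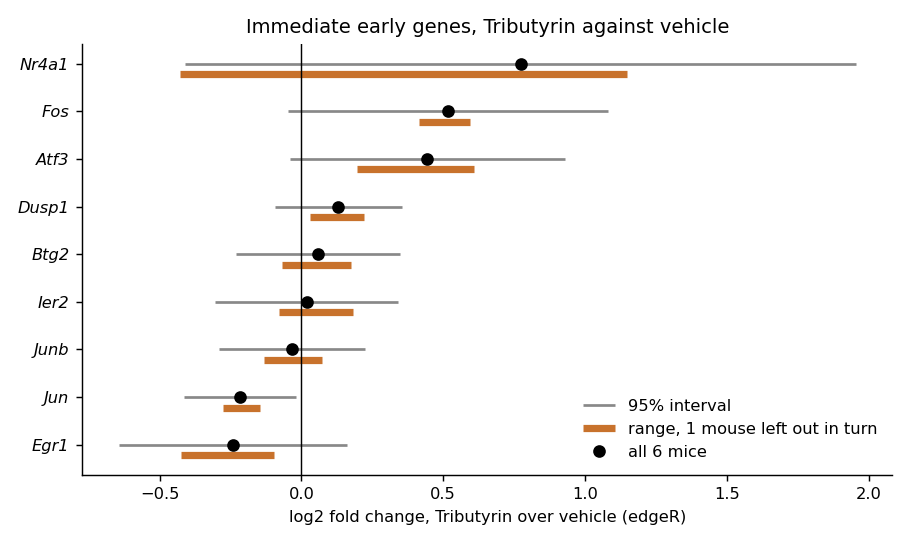
Log2 fold change of the 9 tested immediate early genes, WD + Tributyrin over vehicle, as points with the 95% interval of the edgeR fit as bars. Only the interval of *Jun*, from −0.41 to −0.02 before any adjustment for many genes, leaves out 0, and that of *Nr4a1* is the widest.

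To compare levels between genes, CPM were divided by the exon length of the gene in kilobases (RPKM). With vehicle the order of the mean RPKM was *Jun* (17.7), *Dusp1* (15.9), *Btg2* (9.79), *Ier2* (7.21), *Nr4a1* (6.25), *Junb* (5.78), *Egr1* (1.68), *Atf3* (1.61), *Fos* (0.430) and *Fosb* (0.0428). The vehicle mice of neighbours in this order overlapped for *Jun* and *Dusp1*, for *Ier2* and *Nr4a1*, for *Nr4a1* and *Junb* and for *Egr1* and *Atf3*, and were apart for the others. The AP-1 partners were thus at very unequal levels. *Jun* ranged from 16.2 to 18.9 RPKM in vehicle mice while *Fos* ranged from 0.376 to 0.470 RPKM and *Fosb* from 0.0227 to 0.0633 RPKM. By mean RPKM over the 6 mice, *Dusp1* stood at percentile 86.4 of the genes tested, *Jun* at percentile 86.2 and *Fos* at percentile 17.8. With Tributyrin the means were 17.4 RPKM for *Dusp1*, 15.2 for *Jun* and 10.6 for *Nr4a1*, the last carried by 1 mouse.

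The spread between mice of the same group was wide for *Nr4a1* and smaller for the others. It was measured as the SD of log2 CPM around the group means, pooled over both groups. A prior count of 2 was added before the logarithm, which damps the spread of rare genes. The median SD over all genes tested was 0.150. Of the 9 genes, 7 lay above that median. *Nr4a1*, at 0.989, was at percentile 99.5 of all genes tested and at percentile 99.6 among the 500 genes nearest to it in level. *Atf3* (0.320), *Egr1* (0.280), *Ier2* (0.220) and *Btg2* (0.210) followed, between percentiles 66.9 and 82.1 of all genes. Among genes of like level these 4 stood between percentiles 84.8 and 93.0. *Jun* (0.121) and *Junb* (0.144) had the smallest spread of the 9, followed by *Dusp1* (0.154). Among genes of like level *Jun* stood at percentile 63.5, *Junb* at 53.9 and *Dusp1* at 77.6. *Fos*, at 0.166, was above the median of all genes but only at percentile 9.18 of genes as rare as itself. At its mean of 32.3 counts the counting error alone is 17.6%, so this SD does not show how steady *Fos* was between mice. In 31 genes, 0.219% of those tested, the highest mouse had over 2 times the CPM of the second highest, and *Nr4a1* was the only immediate early gene among them. Without Tributyrin replicate 1 the spread of *Nr4a1* was 0.365, that of *Ier2* 0.0407 and that of *Junb* 0.0816. *Egr1* and *Dusp1* spread less without vehicle replicate 2, at 0.164 and 0.0954.

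**Figure D3:**
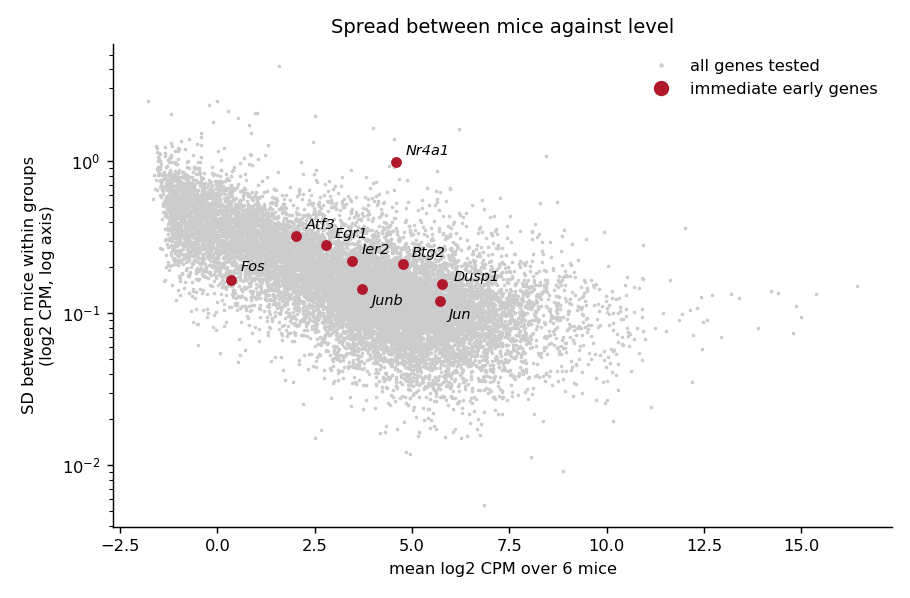
Within-group SD of log2 CPM (vertical axis) against mean log2 CPM (horizontal axis) for the 14133 genes tested in grey, with the 9 immediate early genes named. *Nr4a1*, at 0.989, lies near the upper edge of the genes of its level, and *Fos*, at 0.166, near the lower edge of the genes of its level.

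The mouse with the high *Nr4a1* value was not high in all immediate early genes. Tributyrin replicate 1 had the highest CPM of the 6 mice for *Nr4a1*, *Atf3* and *Btg2* and the lowest for *Jun*, *Junb* and *Ier2*. Of all genes tested, 16.4% were highest and 18.1% lowest in that mouse. Tributyrin replicate 3 was the highest for *Fos*, *Junb*, *Ier2* and *Dusp1* and the lowest for *Nr4a1*, where 21.9% of all genes were highest in it. Vehicle replicate 2 was the lowest for *Fos*, *Egr1*, *Dusp1* and *Btg2*, and 14.8% of all genes were lowest in it. The CPM of the 10 genes summed to 207.8, 179.8 and 195.5 with vehicle and to 247.4, 181.8 and 195.4 with Tributyrin. The mean over the 9 tested genes of log2 CPM, centred per gene, was −0.0539 ± 0.116 in vehicle mice against 0.0539 ± 0.135 in Tributyrin mice (SD, n = 3 each), and without *Nr4a1* it was −0.0378 ± 0.0774 against 0.0378 ± 0.0642. In both cases the groups differed by less than the larger of the SDs.

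**Figure D4:**
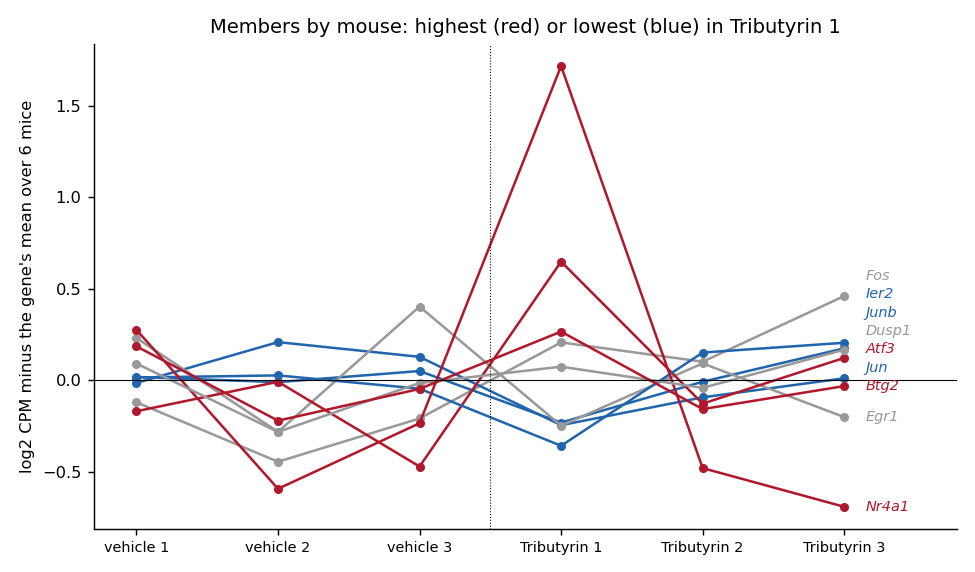
Log2 CPM of the 9 tested immediate early genes minus the mean of each gene over 6 mice (vertical axis), with 1 line a gene across the mice, red where Tributyrin replicate 1 is the highest (*Nr4a1*, *Atf3*, *Btg2*), blue where it is the lowest (*Jun*, *Junb*, *Ier2*) and grey for the rest. The lines cross, and no mouse is high in all 9 genes.

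The other members of the NR4A family were read beside *Nr4a1*, with earlier results of these data known. *Nr4a2* was at 1.19, 1.03 and 1.32 CPM with vehicle and at 3.03, 1.36 and 1.91 CPM with Tributyrin, with a log2 fold change of 0.84 (SE 0.315, adjusted p = 0.999 by edgeR). The groups of *Nr4a2* did not overlap, where 4.34% of all genes tested were apart in that direction. That gap is no separate result, since *Nr4a2* was named for its unadjusted p. *Nr4a2* is a rare transcript, with 28 to 85 counts a library. *Nr4a3* was at 4.19, 4.33 and 5.54 CPM with vehicle and at 12.9, 3.14 and 8.40 CPM with Tributyrin, with a log2 fold change of 0.81 (SE 0.387) and groups that overlapped. All 3 family members were thus highest in Tributyrin replicate 1. So was *Fosl2*, a Fos family gene chosen after its values were seen, at 48.3 CPM there and between 19.98 and 30.8 CPM in the other mice.

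Some stress-responsive transcripts and markers also stood apart in that mouse, and they were chosen after their values were seen. *Zbtb16*, a glucocorticoid-induced factor, was at 24.2, 116.6 and 176.5 CPM with vehicle and at 17.2, 122.7 and 156.2 CPM with Tributyrin. The pair of mice with the highest *Nr4a1* had the lowest *Zbtb16*. *Fkbp5*, induced by glucocorticoids as well, was at 35.7, 70.3 and 51.2 CPM with vehicle and at 21.8, 52.3 and 103.2 CPM with Tributyrin, with the same pair lowest. Other glucocorticoid-induced genes listed did not all follow them. *Tsc22d3*, *Klf9*, *Mt1*, *Mt2* and *Pdk4* were also lowest in Tributyrin replicate 1. *Ddit4* (93.0 CPM), *Sgk1* (75.2 CPM) and *Errfi1* (31.9 CPM) were highest in it, and *Per1* and *Cdkn1a* were neither. The 12 glucocorticoid-induced genes listed summed to 1156, 1341 and 1301 CPM with vehicle and to 1005, 1500 and 1472 CPM with Tributyrin. The largest part of each sum was *Pdk4*, at 356 to 664 CPM. None of the 12 had an unadjusted p under 0.05, against 4.25% of all genes tested, with 9 higher, 3 lower and a median log2 fold change of 0.07. The 5 erythroid markers summed to 490 to 696 CPM with vehicle and to 383 to 941 CPM with Tributyrin, highest in Tributyrin replicate 1. Their part in the *Nr4a1* value was not tested.

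Markers of the ventricle and of other cells were read for the same libraries. The 10 ventricular cardiomyocyte markers, all present, summed to 72618 to 74977 CPM with vehicle and to 70684 to 77363 CPM with Tributyrin. The 6 atrial markers summed to 66.0 to 200.6 CPM with vehicle and to 33.6 to 68.9 CPM with Tributyrin, lowest in Tributyrin replicate 1. At an unadjusted p under 0.05, 5 of the 6 were lower, against 2.28% of all genes, with a median log2 fold change of −1.90. The groups overlapped for 5 of the 6, and the sums of vehicle replicates 1 and 2, 200.6 and 191.2 CPM, stood above that of vehicle replicate 3, 66.0 CPM, which lay within the Tributyrin range. Sums over 8 fibroblast markers were 884 to 1011 and 792 to 984 CPM, over 8 endothelial markers 700 to 712 and 676 to 769 CPM, over 7 smooth muscle and pericyte markers 720 to 773 and 741 to 879 CPM, and over 7 macrophage markers 211 to 248 and 212 to 255 CPM, with vehicle named before Tributyrin. Single markers within these lists differed more than the sums. Of the fibroblast markers 6 of 8 had the lower mean with Tributyrin (median log2 fold change −0.31), 2 of them, *Lum* and *Col1a1*, at an unadjusted p under 0.05. Of the smooth muscle and pericyte markers 6 of 7 had the higher mean (median 0.11), with *Myh11* and *Cnn1* at an unadjusted p under 0.05. Of the ventricular markers *Tnnt2*, *Tnni3* and *Pln* were higher and *Actc1* lower at that level, and 1 of the macrophage markers was higher. Of all genes tested, 1.97% were higher and 2.28% lower at that level. The 5 neutrophil, 6 lymphocyte and 5 adipocyte markers each summed to less than 3 CPM in every mouse, and *Ucp1* was the only marker at 0 in all 6 libraries. The mitochondrial share of counts was 24.7% ± 1.57 in vehicle mice against 27.5% ± 1.46 in Tributyrin mice (SD, n = 3 each). The part of cell makeup or mitochondrial share in the values of the immediate early genes was not tested.

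The wider primary response was followed through lists of the other genes of the pathway. The upstream kinases and factors that switch immediate early genes on had 20 of 20 genes tested, 10 higher and 10 lower, with a median log2 fold change of −0.01. At an unadjusted p under 0.05 by edgeR there were 0 of the 20, against 4.25% of all genes tested. Their extremes were *Mapk14*, encoding the p38 alpha kinase, at 0.17 (SE 0.0863) and *Rps6ka1*, encoding an RSK kinase, at −0.25 (SE 0.142). In both genes the groups did not overlap, where 4.34% of all genes were apart with Tributyrin higher and 4.61% with Tributyrin lower. Of 13 other AP-1 and ATF factors, 12 were tested, 6 higher and 6 lower, with a median of −0.01. In this list *Jund*, the Jun family gene that is usually expressed without a stimulus, was the only 1 of the 12 at an unadjusted p under 0.05. Of all genes tested, 4.25% were at that level. It was at 44.1, 45.5 and 48.0 CPM with vehicle and at 37.9, 41.1 and 41.0 CPM with Tributyrin, with a log2 fold change of −0.20 (SE 0.0739, adjusted p = 0.999 by edgeR). The groups of *Jund* did not overlap, where 4.61% of all genes tested were apart in that direction. That gap is no separate result, since *Jund* was named for its p. *Jun*, whose groups overlapped, also had the lower mean with Tributyrin, while *Junb* was within its spread. The extremes of this list were *Fosl1* at 0.26 and *Batf* at −0.22.

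Of 24 other immediate early transcription factors, 21 were tested, 9 higher and 12 lower, with a median log2 fold change of −0.03. At an unadjusted p under 0.05 there were 3 of the 21, against 4.25% of all genes. Those with the higher mean were *Nr4a2* and *Id2*, an inhibitor of helix-loop-helix factors (0.46, SE 0.194), and the lower 1 was *Ier5* (−0.39, SE 0.154). The lowest was *Egr3*, a relative of *Egr1*, at −0.48 (SE 0.287), and its groups did not overlap, as for 4.61% of all genes in that direction. Of 27 other effectors of the primary response, 25 were tested, 9 higher and 16 lower, with a median of −0.03. At an unadjusted p under 0.05, 3 of the 25 were lower and 0 higher, against 2.28% and 1.97% of all genes. The groups of these 3 did not overlap, as for 4.61% of all genes in that direction. That gap is no separate result, since these 3 genes were picked by their p. They were *Thbs1*, a matricellular glycoprotein (−0.68, SE 0.176), *Ccn1*, also known as Cyr61 (−0.26, SE 0.0819), and *Gadd45b*, a stress sensor (−0.38, SE 0.144). *Thbs1* was between 15.8 and 22.2 CPM with vehicle and between 9.47 and 15.2 CPM with Tributyrin. *Socs3*, a feedback inhibitor of cytokine signalling, was the highest of that list at 0.50 (SE 0.332).

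The MAPK feedback phosphatases and Sprouty genes, which act like *Dusp1* to end the signal, had 12 of 13 genes tested, 6 higher and 6 lower. None of the 12 had an unadjusted p under 0.05 by edgeR, against 4.25% of all genes, and the median was −0.01. At the ends were *Spry2* at 0.21 (SE 0.101) and *Spry4* at −0.20 (SE 0.115). The groups of *Spry2* did not overlap, as for 4.34% of all genes in that direction. Of 8 heat shock stress genes, all tested, *Dnajb1* (0.25) was the only 1 at an unadjusted p under 0.05, against 4.25% of all genes. The median of the 8 was −0.02. No gene of these lists passed an FDR of 10%, and the adjusted p of each was 0.999. Some genes known for sharp induction in other settings had hardly any reads here. *Egr4* had 0 counts in all 6 libraries, *Npas4* 0 to 4, *Il6* 0 to 2, *Cxcl1* 1 to 15, *Egr2* 2 to 17, *Dusp2* 1 to 18 and *Batf3* 0 to 11, and these did not pass the filter.

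**Figure D5:**
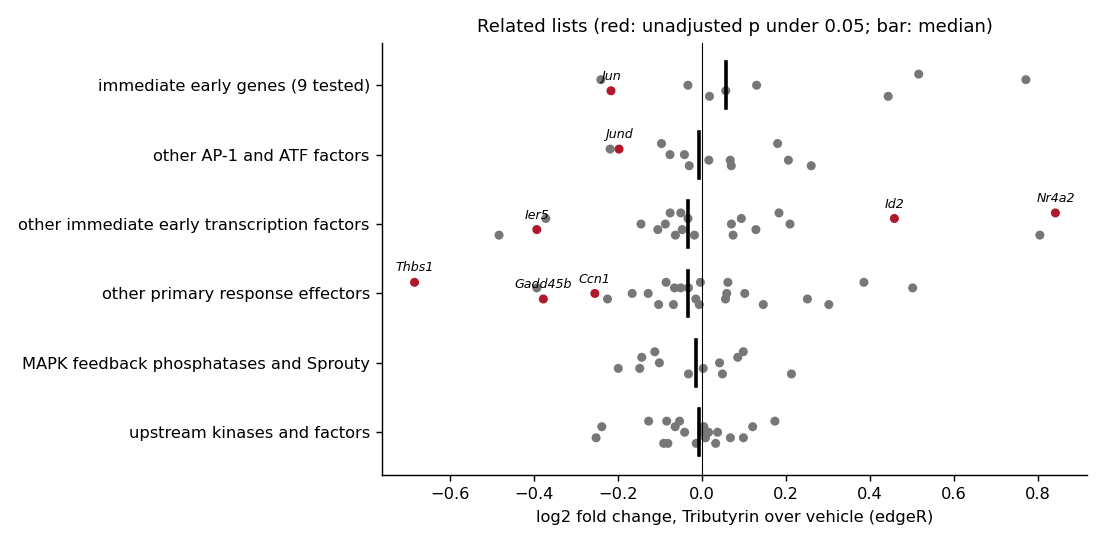
Log2 fold change, WD + Tributyrin over vehicle, of the 9 tested immediate early genes and of the tested genes of 5 related lists, with a point per gene, in red at an unadjusted p under 0.05, and a bar at the median of each list. The medians lie between −0.03 and 0.06, and *Nr4a2* at 0.84 and *Thbs1* at −0.68 lie farthest out.

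The genes whose pattern over the 6 mice was most like the mean of the 9 immediate early genes were found by Pearson r of log2 CPM among 10160 tested genes with a mean log2 CPM of at least 2. The 9 genes do not share 1 pattern themselves. Over the 6 mice the median r of their 36 pairs was 0.13, and 15 pairs were negative, so the mean is weighted towards the genes of widest spread, *Nr4a1* first of all. The most alike were *Hist1h1c* (0.988), *Azi2* (0.986), *Tmem65* (0.981), *Rgs2* (0.980), *Fam32a* (0.979), *Impa2* (0.978), *Ak4* (0.977), *Akap7* (0.976), *Ank* (0.975) and *Rab3a* (0.974). With the group means removed first, the 10 most like were *Dguok* (0.999), *Rgs2* (0.999), *Msi2* (0.994), *Azi2* (0.990), *Ccdc167* (0.989), *Yae1d1* (0.989), *Hmgb2* (0.987), *Rcor2* (0.987), *Hist1h1c* (0.985) and *Pomt2* (0.985). *Hist1h1c*, *Azi2* and *Rgs2* stood in both lists. With 6 libraries that share their depth and scaling, values this near 1 are found for the best of so many genes, and they are given as a description.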

How the data were processed

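Ventricle RNA of 6 mice, 3 a group, had been sequenced as single reads of a stranded mRNA library. The values are whole-number read counts per Ensembl gene that the authors deposited without normalization. The submitters' processing notes name cutadapt 1.13, STAR, HTSeq 0.6.1p1, DESeq2 1.14.1 and mm10. How strand was treated in counting, and which annotation release, is not given in the sources used here. GENCODE M21 (GRCm38) gave symbols and positions for 54165 of the 54232 identifiers. No line named no gene (0 lines).

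Groups were taken from the labels and compared with edgeR's quasi-likelihood test (TMM, filterByExpr with a minimum count of 10 and total of 15, no covariate, Benjamini-Hochberg over 14133 genes) at an FDR of 10% and 5%. Log2 fold changes are WD + Tributyrin over vehicle. Single values were compared by two-sided exact permutation tests. Alternatives were other scalings and filters, DESeq2, limma-voom, a robust prior, a replicate block and leaving out each mouse. The genes and lists were chosen with earlier results of these data known. Named by rule were all 10 immediate early genes, from each of the 5 pathway lists the genes at an unadjusted p under 0.05 and both extremes, and the 10 genes most alike in pattern. Others, such as *Nr4a3*, *Fosl2* and genes of the stress and cell type lists, were named outside that rule. Libraries differed by more than sampling noise (chi-square per degree of freedom 6.67 to 28.2).

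Tools were R 4.3.3, edgeR 4.0.16, DESeq2 1.42.0, limma 3.58.1, Python 3.11.15, numpy 2.4.6, pandas 2.3.3 and matplotlib 3.10.9.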

Additional observations from a re-analysis of the deposited data

How the results depend on the processing

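All genes past an FDR of 10% numbered 0 with edgeR, 167 with no filter on low counts, 11 with DESeq2, 2 with the replicate block, 5 without both replicate 1 mice (chosen after seeing the data) and 0 to 3 with each mouse left out in turn. Immediate early genes among them numbered 0 under 15 of the 16 alternatives and 1 with no filter, *Nr4a1* (log2 fold change 0.78, adjusted p = 5.34e-11 by edgeR). The prior degrees of freedom of the spread were 6.31 with the filter and infinite without it, where the spread of single genes such as *Nr4a1* was not used. Over the alternatives the other 9 genes had adjusted p of 0.450 or more, and *Nr4a1* of 0.544 or more where low counts were filtered.

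Of 142 log2 fold changes of these genes under alternatives, 129 kept their direction and side of the threshold and 12 reversed. With library size alone *Ier2* was at −0.0548 and *Btg2* at −0.0135, beside a median of −0.07 over all genes, and with limma-voom *Ier2* was at −0.0119. Without Tributyrin replicate 1, *Nr4a1* was at −0.43, *Junb* at 0.0708 and *Btg2* at −0.0687, and without both replicate 1 mice *Nr4a1* was at −0.16, *Junb* at 0.0710 and *Ier2*, with the same sign as with all mice, at 0.19. *Btg2* was at −0.0380 without vehicle replicate 2. *Ier2* was at −0.00234 without vehicle replicate 3, −0.0552 without Tributyrin replicate 2 and −0.0780 without Tributyrin replicate 3. Leaving out each mouse gave ranges of 0.42 to 0.60 for *Fos*, −0.28 to −0.15 for *Jun*, −0.13 to 0.0708 for *Junb*, −0.43 to −0.10 for *Egr1*, 0.20 to 0.61 for *Atf3*, −0.0780 to 0.18 for *Ier2*, −0.43 to 1.15 for *Nr4a1*, 0.0291 to 0.22 for *Dusp1* and −0.0687 to 0.18 for *Btg2*. The cause was not tested. Of the 9 genes, 7 lay above the median spread of all genes, and 5 with library size alone. With a mouse left out the number was 6 to 9. It was then out of 10 genes tested without vehicle replicate 3 or Tributyrin replicate 3, and out of 9 without any other mouse.

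The deviations of same-numbered mice from their group means correlated at 0.21, 0.04 and 0.01 across genes, which is too low in 2 of the 3 pairs to treat the numbers as pairs. The replicate block changed no call among the immediate early genes. With 3 mice a group the spread between mice limits *Nr4a1*, and the number of counts limits *Fos* and *Fosb*.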
